A study of Mus musculus with 4 samples.

Results

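Tmsb15b2, Enpp2 and Ppp1r1a are 3 of the 32285 genes counted in single-cell RNA sequencing of mouse pancreatic islet cells. They were chosen by symbol because earlier results of these data had put them among the genes with the highest ratio of Malat1-null over wild-type level in beta cells. That ratio is therefore given as a description and is no evidence of a genotype effect. The series holds 4 samples, of which 2 are analysed here, both treated with TCDD, which is a dioxin and a ligand of the aryl hydrocarbon receptor. One is from MALAT1-/- mice, which lack the nuclear long non-coding RNA Malat1, and the other from wild-type C57BL/6 mice. The labels give neither the TCDD dose and time, nor the age and number of the animals, nor the kind of Malat1 deletion. The DMSO-treated samples were not analysed here, so both groups shared the TCDD treatment and no effect of TCDD itself could be measured. With 1 library per genotype there is no spread between animals and no test, and genotype cannot be told apart from any other difference between the 2 islet preparations. All intervals are exact 95% intervals that cover counting error only.

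Tmsb15b2 encodes a beta-thymosin, one of a family of very short proteins that bind actin monomers and hold them out of filaments. Enpp2 encodes autotaxin, a secreted lysophospholipase D that releases the signalling lipid lysophosphatidic acid (LPA) from lysophosphatidylcholine. LPA acts on the G-protein-coupled receptors of the Lpar family and is dephosphorylated by the lipid phosphatases of the Plpp family. Ppp1r1a encodes inhibitor-1, which blocks protein phosphatase 1 (PP1) once protein kinase A has phosphorylated it, and which the phosphatase calcineurin switches off again. In beta cells, protein kinase A is driven by cyclic AMP made downstream of incretin receptors such as Glp1r.

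Tmsb15b2 (ENSMUSG00000089996) lies on the minus strand of the X chromosome at chrX:136955265-136975497 in the GRCm38 (mm10) build, with GENCODE M21 annotation. Enpp2 (ENSMUSG00000022425) at chr15:54838901-54952892 and Ppp1r1a (ENSMUSG00000022490) at chr15:103530279-103538003 lie on the minus strand of chromosome 15. All 3 genes are protein-coding. Tmsb15b2 overlaps its near copy Tmsb15b1 (ENSMUSG00000089768, chrX:136974022-136976874), and the 2 coding sequences are shown to let a reader see how little separates them. Each runs from ATG to stop, 5′ to 3′, and capitals mark the bases that differ.
Tmsb15b2-201: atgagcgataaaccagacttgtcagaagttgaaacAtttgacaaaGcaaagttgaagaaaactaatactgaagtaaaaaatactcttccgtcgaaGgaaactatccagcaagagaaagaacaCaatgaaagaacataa
Tmsb15b1-201: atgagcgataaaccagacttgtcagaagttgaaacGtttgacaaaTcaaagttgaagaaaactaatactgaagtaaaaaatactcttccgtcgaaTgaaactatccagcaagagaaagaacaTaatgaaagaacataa
Both coding sequences are 138 bases long and differ at 4 positions, counted from the A of the ATG with the Tmsb15b2 base first: A36G, G46T, G96T and C123T. They are 97.1% identical. The last exons, from which 3′ tags come, are both 218 bases long, with 7 differences, 96.8% identity and a longest identical run of 113 bases. Tags within shared runs cannot be assigned to either gene, so the split between both genes is uncertain. Another annotated gene, Tmsb15l (ENSMUSG00000072955, chrX:136954988-136976869), has a last exon that spans that of Tmsb15b2 and is not in the feature list of the matrices, so 3′ tags counted for Tmsb15b2 may come from either.

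The matrices list 6794880 barcodes each, and hold 134950186 unique molecular identifiers (UMIs, one per captured RNA molecule) in the Malat1-null library and 81872519 in the wild-type library. After the filters, 2905 of 3198 Malat1-null and 2077 of 2166 wild-type barcodes with at least 1000 UMIs were kept as cells, with a median of 37812 and 27595 UMIs, and 1 such barcode was shared by both libraries. Although the labels name the cell type as beta cell, marker genes placed 1781 Malat1-null cells (61.3%) and 908 wild-type cells (43.7%) in the beta-like class, and all 9 beta cell markers exceeded 20 CPM (UMIs of a gene per 1000000 UMIs of the same cells) there in both libraries. Beta-like cells had a median of 47891 and 61154.5 UMIs. The remaining cells were alpha-like (78 Malat1-null and 30 wild-type), delta-like (30 and 17), endothelial-like (39 and 87), mesenchymal-like (15 and 10), ductal-like (17 and 133), acinar-like (42 and 266), B cell-like (308 and 192), T or NK-like (157 and 296) or in unnamed clusters (438 and 138). Malat1 had 26 UMIs in all Malat1-null beta-like cells together, or 0.28 CPM, against 555772 UMIs, or 9698 CPM, in wild-type beta-like cells, as the genotype labels give. All levels are in CPM. Ratios are Malat1-null over wild type after TMM scaling, which multiplies the quotient of the levels by 1.14 in beta-like cells. The median log2 ratio over genes of at least 50 CPM there was 0.02 with TMM and -0.17 with total-count scaling.

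Tmsb15b2 had 11411 UMIs, or 121 CPM (119 to 124), in Malat1-null beta-like cells, against 1881 UMIs, or 32.8 CPM (31.4 to 34.3), in wild-type beta-like cells, and the ratio was 4.23 (4.02 to 4.44). Both the share of cells with a UMI and the number of UMIs in those cells were higher in the Malat1-null library. At one depth a higher mean level raises both, so they restate the ratio and are not separate results. At least 1 UMI was seen in 78.5% of Malat1-null and 59.0% of wild-type beta-like cells. Once every cell was thinned at random to 5000 UMIs, which left out 54 Malat1-null and 19 wild-type cells below that depth, the shares were 35.0% (605 of 1727 cells) and 14.2% (126 of 889 cells). Cells with a UMI held a mean of 8.16 and a median of 5 in the Malat1-null library, against a mean of 3.51 and a median of 2 in wild type, and the highest cells held 81 and 35. In those positive cells the level was 141 CPM in the Malat1-null library and 52.0 in wild type. At the thinned depth the mean per positive cell was 1.69 and 1.40 UMIs.

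Enpp2 had 5734 UMIs, or 61.0 CPM (59.4 to 62.6), in Malat1-null beta-like cells, against 1315 UMIs, or 22.9 CPM (21.7 to 24.2), in wild-type beta-like cells, a ratio of 3.04 (2.86 to 3.23). The transcript was seen in 75.4% of Malat1-null and 53.1% of wild-type cells before thinning, and in 23.6% and 9.90% at 5000 UMIs. Positive cells held a mean of 4.27 and a median of 3 UMIs in the Malat1-null library, against a mean of 2.73 and a median of 2 in wild type, and at most 43 and 17. In the positive cells the level was 73.6 CPM in the Malat1-null library and 39.0 in wild type. Thinned to 5000 UMIs, positive cells held 1.35 and 1.18 UMIs on average. As for Tmsb15b2, both the share and the UMIs per positive cell were higher in the Malat1-null library. A higher mean level raises both at one depth, so they are not separate results.

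Ppp1r1a had 15884 UMIs, or 169 CPM (166 to 172), in Malat1-null beta-like cells, against 4089 UMIs, or 71.3 CPM (69.2 to 73.6), in wild-type beta-like cells, a ratio of 2.71 (2.61 to 2.80). Most cells carried it: 91.7% of Malat1-null and 87.1% of wild-type cells had a UMI before thinning, and 48.8% and 29.1% at 5000 UMIs. Positive cells held a mean of 9.73 UMIs in the Malat1-null library and 5.17 in wild type, with medians of 7 and 4 and maxima of 65 and 43. The level in positive cells was 176 and 78.7 CPM. Thinned to 5000 UMIs, positive cells held 1.66 and 1.39 UMIs on average. At that depth both the share and the UMIs per positive cell were higher in the Malat1-null library, as a higher mean level alone would give.

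**Figure D1:**
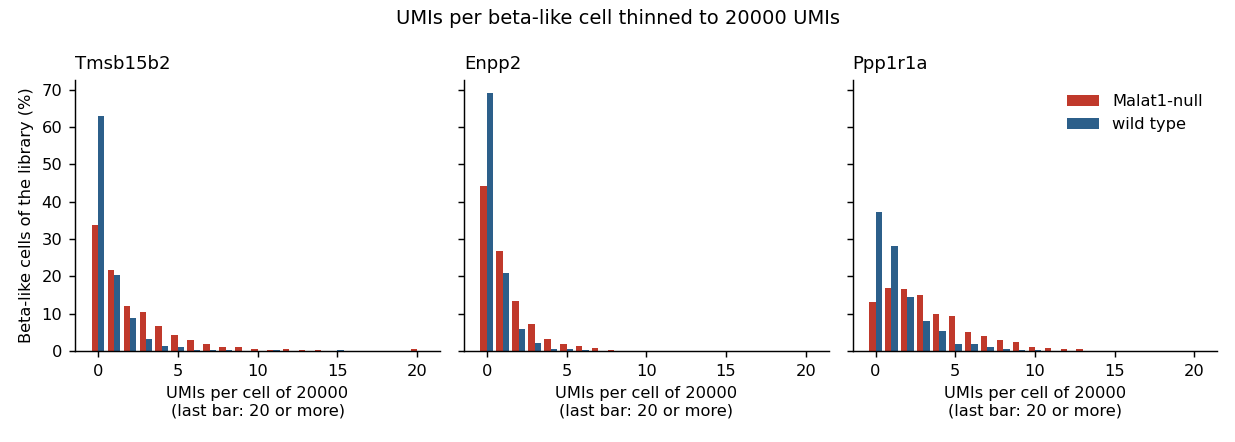
Share of beta-like cells (y axis, percent) by the number of UMIs of each gene per cell (x axis) after every cell was thinned to 20000 UMIs, for 1641 Malat1-null and 869 wild-type cells. Cells with 0 UMIs make up 33.6% and 62.9% for Tmsb15b2, 44.2% and 69.2% for Enpp2, and 13.3% and 37.2% for Ppp1r1a.

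As a measure of background in a class with no endocrine role, ductal-like cells had a median of 15467 UMIs in the Malat1-null library and 25790 in wild type. Thinned to 5000 UMIs, 0 of 15 Malat1-null ductal-like cells had a UMI of any of the 3 genes, which allows a share of up to 20.0%. In wild type the counts were 4 of 131 cells (3.05%) for Tmsb15b2 and 0 of 131 for both Enpp2 and Ppp1r1a, which allows a share of up to 2.29%. The Malat1-null ductal-like cells held more acinar marker RNA (16177 CPM in sum) than ductal marker RNA (12955 CPM), against 520 CPM of acinar and 19280 CPM of ductal markers in wild type. Other classes had higher shares. A Tmsb15b2 UMI was seen at that depth in 6.13% of Malat1-null and 5.66% of wild-type B cell-like cells, and in 2.56% and 7.19% of T or NK-like cells. Unthinned, at medians of 5302.5 and 7440.5 UMIs, 16.2% of Malat1-null and 16.7% of wild-type B cell-like cells had one. The wild-type beta-like share of Tmsb15b2, 14.2% (11.9% to 16.6%), thus lay above the 7.19% (3.64% to 12.5%) of T or NK-like cells, with intervals that overlap. For Enpp2 the 3 of 15 Malat1-null mesenchymal-like cells with a UMI (20.0%, 4.33% to 48.1%) could not be told from the beta-like share of 23.6%. The Malat1-null cells of that class held more B cell marker RNA (10039 CPM in sum) than mesenchymal marker RNA (3082 CPM).

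Of the 1676 genes with at least 50 CPM in a library's beta-like cells and 50 UMIs over both, 6 (0.358%) had a ratio above 2 with an interval wholly above 1.5, and 21 (1.25%) had one below 1 in 2 by the same measure. The 3 chosen genes held places 1, 2 and 4 among all ratios, and nothing is read from that, because the ratio chose them. Slc2a2, the glucose transporter of mouse beta cells, stood between them at 2.82. Just below Ppp1r1a were Nfkbia, an inhibitor of NF-kB, at 2.15 and Mafa, a beta cell transcription factor, at 2.06, followed by the ribonuclease gene Rnase4 at 1.91, the first under the 2-fold limit.

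The beta-like cells fell into several clusters, and the 3 genes were at a higher level in the Malat1-null library in each of the 5 clusters with at least 30 cells of both libraries. Nothing is read from that shared direction, because the ratio over the beta cells chose the genes. Ratios within clusters, scaled within each cluster, ranged from 1.48 to 4.14 for Tmsb15b2, from 2.00 to 6.23 for Enpp2 and from 1.32 to 2.81 for Ppp1r1a. Clusters are called here by their leading gene. The 3 genes were left out of the clustering, but genes that go with them were not, so the clusters are not independent of them. The Pdyn-led cluster held 22.2% of Malat1-null and 59.1% of wild-type beta-like cells, and the Slc2a2-led cluster 32.0% and 8.15%. The mix of clusters thus moves with the libraries, and its part in the pooled ratios was not tested beyond these within-cluster values.

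Of these 5 clusters, the Slc2a2-led one had the highest Tmsb15b2 level in the Malat1-null library, at 162 CPM (158 to 167) against 41.4 (35.6 to 47.9) in wild type. In the Pdyn-led cluster it was 83.9 in the Malat1-null library and 23.7 in wild type, in the Atf5-led cluster 84.9 and 39.4, and in the Cebpd-led cluster 123 and 40.0. The Hspa1a-led cluster, marked by heat-shock genes, was the highest of the 5 in wild type, at 69.0 CPM (62.8 to 75.8) against 92.1 (81.1 to 104) in the Malat1-null library, so that its ratio of 1.48 (1.27 to 1.74) was the lowest. For Tmsb15b2 the order of the clusters therefore differed between the libraries.

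Enpp2 followed another order. Of the 5 clusters, the Cebpd-led one had the highest Enpp2 level in both libraries, at 75.6 CPM in the Malat1-null library and 32.4 in wild type, although in wild type its interval (28.0 to 37.3) overlapped that of the Slc2a2-led cluster (25.5 to 36.0). The lowest level of the 5 was in the Hspa1a-led cluster, at 36.8 CPM (29.9 to 44.7; 101 UMIs) in the Malat1-null library and 6.56 (4.73 to 8.87; 42 UMIs) in wild type, where its ratio reached 6.23 (4.31 to 9.15). Ppp1r1a had its highest level of the 5 in the Slc2a2-led cluster of the Malat1-null library, at 195 CPM against 82.6 in wild type, and, like Tmsb15b2, in the Hspa1a-led cluster of wild type, at 115 against 137 in the Malat1-null library. Ppp1r1a is itself among the 10 leading genes of the Slc2a2-led cluster, and Enpp2 among those of the Cebpd-led cluster.

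In a small cluster led by Hspa5, an endoplasmic reticulum chaperone, all 3 genes were low. Its 28 Malat1-null cells held 11.8 CPM of Tmsb15b2, 14.6 of Enpp2 and 25.5 of Ppp1r1a, and its 3 wild-type cells were too few for a ratio.

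**Figure D2:**
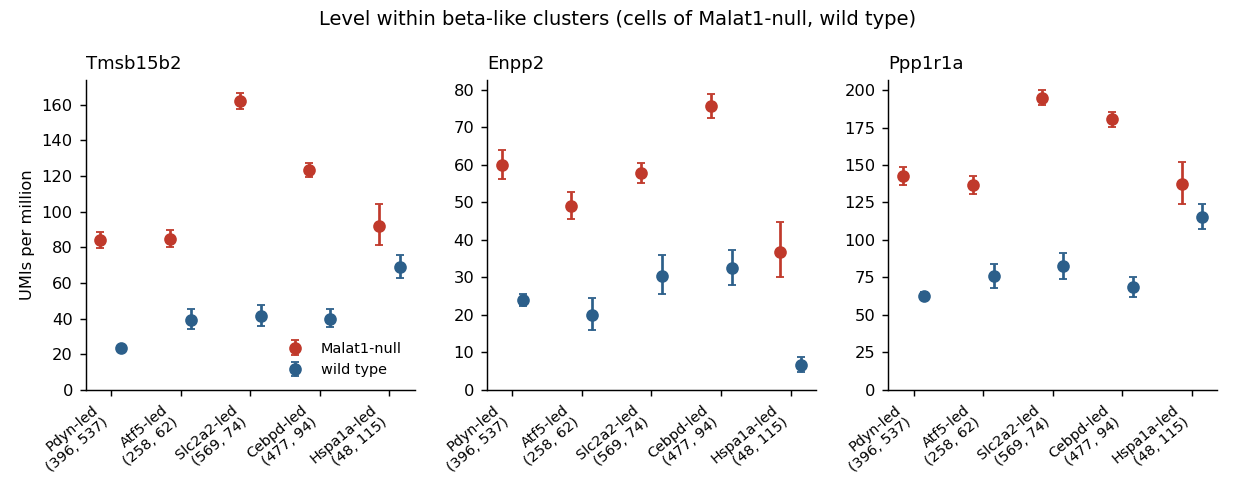
Level of each gene (CPM, y axis) in the beta-like clusters, named by their leading gene, with Malat1-null left of wild type and bars for exact 95% Poisson intervals. Of the 5 larger clusters, Tmsb15b2 and Ppp1r1a are highest in the Slc2a2-led cluster in the Malat1-null library and in the Hspa1a-led cluster in wild type, where Enpp2 has its lowest level.

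The genes also varied more between beta-like cells than most genes of like mean. With cells thinned to 20000 UMIs, the variance over the mean of Tmsb15b2 was 5.30 in the Malat1-null library and 3.43 in wild type, against medians of 1.28 and 1.14 among genes of like mean. For Enpp2 it was 2.21 and 1.81, against 1.16 and 1.11, and for Ppp1r1a 2.44 and 2.35, against 1.40 and 1.23. The 10% of cells with the most Tmsb15b2 held 43.5% of its UMIs in the Malat1-null library and 56.4% in wild type. The same share for Enpp2 was 41.4% and 57.1%, and for Ppp1r1a 28.8% and 39.3%. Single thinned cells reached 53 and 17 UMIs of Tmsb15b2, 16 and 7 of Enpp2, and 18 and 13 of Ppp1r1a.

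Between beta-like cells, Tmsb15b2 and Ppp1r1a went together in both libraries. Pearson's r of log2(UMIs + 1) was 0.285 over 1641 Malat1-null cells and 0.257 over 869 wild-type cells, all thinned to 20000 UMIs, with Spearman's rho of 0.289 and 0.208. Without the largest beta-like cluster of each library r was 0.303 and 0.348. Enpp2 went with neither gene to a like degree. Its r with Tmsb15b2 was 0.084 in the Malat1-null library and -0.045 in wild type, and its r with Ppp1r1a was 0.058 and -0.039. These coefficients are descriptions, since the cells of a library share its preparation and sequencing. Even after thinning, r with the cell's original depth was 0.062 and -0.188 for Ppp1r1a, 0.117 and -0.100 for Tmsb15b2, and -0.010 and -0.056 for Enpp2.

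The genes most like each of them between cells were ranked by the lower r of the 2 libraries among 7866 genes. For Tmsb15b2 the first 5 were Ppp1r1a, Slc2a2 (r of 0.293 in the Malat1-null library and 0.232 in wild type), the granule zinc transporter gene Slc30a8 (0.232 and 0.225), the fatty acid oxidation gene Hadh (0.209 and 0.167) and the granin gene Chga (0.205 and 0.160). For Ppp1r1a they were Slc2a2 (0.354 and 0.285), Tmsb15b2, Slc30a8 (0.256 and 0.223), Uqcc2 and Ero1lb. Slc2a2 and Slc30a8 thus stood in both lists. For Enpp2 they were Pcsk2, a prohormone convertase (0.177 and 0.210), Cltrn, Peg3, Sez6l and the amylin gene Iapp, none of which was in the other 2 lists.

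**Figure D3:**
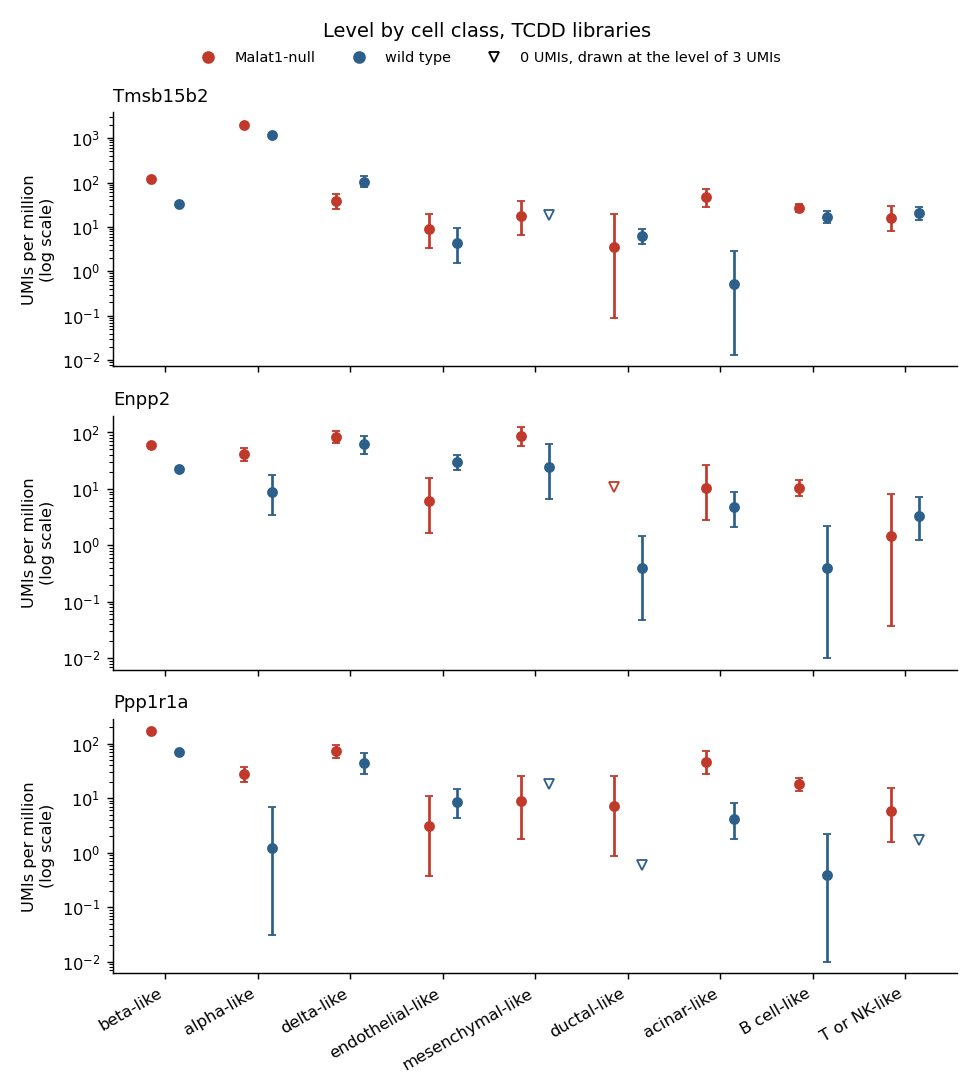
Level of each gene (CPM, log scale) by cell class, with Malat1-null left of wild type, exact 95% Poisson intervals as bars, and open triangles at the level of 3 UMIs where no UMI was counted. Tmsb15b2 is highest in alpha-like cells, Enpp2 is spread over delta-like, mesenchymal-like, beta-like and, in wild type, endothelial-like cells, and Ppp1r1a is highest in beta-like cells. The mesenchymal-like values of Enpp2 rest on 29 Malat1-null and 4 wild-type UMIs, and the Malat1-null cells of that class held more B cell than mesenchymal marker RNA.

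Outside beta-like cells, Tmsb15b2 was far higher in alpha-like cells, the glucagon cells of the islet. It held 2986 UMIs in 78 Malat1-null alpha-like cells, or 1995 CPM (1924 to 2068), against 944 UMIs in 30 wild-type alpha-like cells, or 1171 CPM (1097 to 1248). A UMI was seen in 77 of the 78 Malat1-null and in all 30 wild-type cells. The ratio was 1.65 (1.53 to 1.77), below that in beta-like cells, and Tmsb15b2 held place 95 of the 2842 genes ranked in alpha-like cells. Of these genes, 0.774% had a ratio above 2 with an interval wholly above 1.5, and Tmsb15b2 was not among them. Of 8113 genes of at least 10 CPM in alpha-like cells, 1031 (12.7%) had a ratio above 1.5. The alpha-like clusters also had Tmsb15b2 among the 10 genes that set them apart, which restates the same level and is no independent result. Tmsb15b2 was left out of the clustering, but genes that go with it were not, so the classes are not independent of it. As a measure of alpha cell RNA in beta-like cells, the Gcg UMIs counted there would, at the alpha-like ratio of Tmsb15b2 to Gcg, bring 0.21% of their Tmsb15b2 UMIs in the Malat1-null library and 0.15% in wild type. Beta-like cells without any Gcg UMI held 122 and 34.1 CPM.

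In wild type the next levels of Tmsb15b2 were 105 CPM (77.8 to 137) in delta-like and 32.8 in beta-like cells, then 20.2 (14.2 to 28.0) in T or NK-like and 17.0 (12.3 to 22.9) in B cell-like cells, 2 values whose intervals overlap. In the Malat1-null library, beta-like cells came second at 121, followed by acinar-like cells at 46.3 (18 UMIs, 11 of them in 1 cell), delta-like cells at 38.8 (26.0 to 55.7), B cell-like cells at 27.1, mesenchymal-like cells at 17.7 (6.49 to 38.5) and T or NK-like cells at 16.2 (8.08 to 29.0). The wild-type delta-like value rests on 51 UMIs, of which 45 lay in 2 of 17 cells. These 17 cells also held 6329 UMIs of Gcg, and the part of alpha cell RNA in that value was not tested. With free RNA set by the Ins2 level of the same cells, B cell-like cells held 1.40 times (1.10 to 1.77) the Tmsb15b2 that free RNA would give in the Malat1-null library and 146 times (95.5 to 221) in wild type, and T or NK-like cells 2.99 times (1.48 to 5.43) and 99 times (63.2 to 153). This takes every Ins2 UMI of a class as free RNA, also those of barcodes mixed with beta cells. Ins2 was at 55078 CPM in Malat1-null and 721 in wild-type B cell-like cells, and at 15354 and 1263 in T or NK-like cells. One Malat1-null B cell-like cell held 27219 of the 192981 Ins2 UMIs of its class. The 2 libraries are therefore not compared by these quotients. Ductal-like cells held 3.59 CPM (1 UMI) in the Malat1-null library and 6.19 in wild type, and endothelial-like cells 9.16 and 4.27, with 6 UMIs in each library. Wild-type acinar-like cells held 1 UMI. Mesenchymal-like cells held 17.7 CPM (6 UMIs) in the Malat1-null library, against 0 UMIs in wild type, where 3 UMIs would be 18.3 CPM.

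Enpp2 in the Malat1-null library was at 85.5 CPM (57.2 to 123) in mesenchymal-like cells and 84.3 (64.8 to 108) in delta-like cells, ahead of 61.0 in beta-like cells and 41.4 (31.8 to 53.1) in alpha-like cells, and the interval of the mesenchymal-like cells overlaps that of beta-like cells. In wild type delta-like cells led with 61.5 (41.5 to 87.8), followed by endothelial-like cells at 29.9 (21.6 to 40.4), mesenchymal-like cells at 24.4 (6.65 to 62.5) and beta-like cells at 22.9, and the intervals of these 3 overlap. Several of these values rest on few cells. In mesenchymal-like cells 29 UMIs were found in 7 of 15 Malat1-null cells, against 4 UMIs in 2 of 10 wild-type cells, and in endothelial-like cells 4 UMIs in 3 of 39 Malat1-null cells, against 42 UMIs in 7 of 87 wild-type cells, 28 of them in 2 cells. Markers of other cells moved with these values. Malat1-null mesenchymal-like cells held their own markers at 3082 CPM in sum, against 11645 in wild type, B cell markers at 10039 against 0, and 6 of 8 macrophage markers above 20 CPM, with a sum of 245, against 8 of 8 at 0. In endothelial-like cells the endothelial markers summed to 14403 CPM in the Malat1-null library and 13885 in wild type, B cell markers to 1626 and 2.85, and acinar markers to 59.5 and 769. The part of this RNA in the Enpp2 values was not tested. Alpha-like cells held 8.68 CPM (3.49 to 17.9) in wild type. The other classes were low, with 10.6 CPM in Malat1-null and 0.40 in wild-type B cell-like cells, 10.3 and 4.70 in acinar-like cells, and 1.47 and 3.37 in T or NK-like cells. Ductal-like cells had 0 UMIs in the Malat1-null library, where 3 UMIs would be 10.8 CPM, and 0.40 CPM in wild type.

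Delta-like cells, which make somatostatin, gave ratios of 1.32 (0.84 to 2.11) for Enpp2 and 1.57 (0.94 to 2.70) for Ppp1r1a, and both intervals include 1. Their markers were mixed: the PP cell markers, led by Ppy and Pyy, summed to 78365 CPM in the Malat1-null and 98028 in the wild-type delta-like cells, with 4 of 5 above 20 CPM in both. Gcg was at 3264 CPM (2439 UMIs, 2320 of them in 1 cell) in Malat1-null delta-like cells. In wild-type delta-like cells it was at 12971 CPM (6329 UMIs, at most 4289 in 1 cell). The part of such mixed RNA in the delta-like values was not tested.

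Ppp1r1a had its highest level in beta-like cells in both libraries. After 169 CPM in Malat1-null and 71.3 in wild-type beta-like cells, delta-like cells came next at 73.6 (55.5 to 95.8) and 45.1 (28.3 to 68.3). In wild type it was at 8.55 CPM in endothelial-like cells, with all 12 UMIs in 1 cell that also held 18515 of the 19469 Ins2 UMIs and 5 of the 6 Tmsb15b2 UMIs of the class, and at 1.24 (1 UMI) in alpha-like and 0.40 (1 UMI) in B cell-like cells, and at 4.17 in acinar-like cells. It had 0 UMIs in 133 ductal-like, 296 T or NK-like and 10 mesenchymal-like cells of wild type, which allows up to 0.60, 1.69 and 18.3 CPM at 3 UMIs. In the Malat1-null library it was at 46.3 CPM in acinar-like, 28.1 in alpha-like and 18.0 in B cell-like cells, and at 3.05 to 8.84 in the other 4 classes, on 2 to 4 UMIs each. Of the 42 UMIs in Malat1-null alpha-like cells, 25 lay in 2 cells.

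These Malat1-null levels moved with insulin RNA in the same classes, whose part in them was not tested beyond the values that follow. Ins2 was at 44728 CPM in Malat1-null and 1319 in wild-type alpha-like cells. In alpha-like cells with under 2% of UMIs from Ins2, 71 Malat1-null cells and all 30 wild-type cells, Ppp1r1a was at 9.36 and 1.24, Enpp2 at 27.2 and 8.68 and Tmsb15b2 at 2159 and 1171 CPM. In B cell-like cells under the same limit, 245 Malat1-null and 192 wild-type cells, Ppp1r1a was at 2.19 and 0.40 CPM and Tmsb15b2 at 15.4 and 17.0. In acinar-like cells the values rested on single cells. One Malat1-null acinar-like cell held 40431 of the 51528 Ins2 UMIs of the class, and with them 11 of 18 Tmsb15b2, 14 of 18 Ppp1r1a and 1 of 4 Enpp2 UMIs. Without it Tmsb15b2 was at 26.0 CPM, Ppp1r1a at 14.9 and Enpp2 at 11.2, on 7, 4 and 3 UMIs. On 7 UMIs the place of Tmsb15b2 in acinar-like cells relative to delta-like and B cell-like cells cannot be told. In wild type 1 acinar-like cell held 18775 of 31036 Ins2 and 6 of 8 Ppp1r1a UMIs, and Ppp1r1a was at 1.08 CPM without it. Leaving out these cells was chosen after the data had been seen.

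Free RNA was read from barcodes of 10 to 99 UMIs, which are too shallow to be kept as cells. The Malat1-null library had 48096 such barcodes and wild type 64835. Of 100 to under 500 UMIs there were 48384 and 5619, so the pools were not alike. Malat1 was at 1602 CPM on Malat1-null barcodes of 10 to 99 UMIs, against 5404 in wild type and 0.28 in Malat1-null beta-like cells. The source of that Malat1 RNA and its part in the free-RNA values were not tested. On barcodes of 10 to 99 UMIs, Tmsb15b2 was at 126 CPM (283 UMIs) in the Malat1-null library and 24.1 (55 UMIs) in wild type. Enpp2 was at 28.0 (63) and 17.5 (40), and Ppp1r1a at 140 (314) and 32.8 (75). Set against beta-like cells of the same library, the free level of Tmsb15b2 was 1.04 times (0.92 to 1.17) the beta-like level in the Malat1-null library and 0.73 times (0.55 to 0.96) in wild type. Enpp2 was at 0.46 times (0.35 to 0.59) and 0.76 times (0.54 to 1.04), and Ppp1r1a at 0.83 times (0.74 to 0.92) and 0.46 times (0.36 to 0.58). Relative to beta-like cells, Enpp2 was thus the least represented of the 3 in Malat1-null free RNA, while in wild type Ppp1r1a had the lowest value. Enpp2 was also the lowest in the Malat1-null library on barcodes of 2 to 9 UMIs and on those of 100 to under 500. The wild-type order turned in the deeper of these classes, with Ppp1r1a the highest at 0.44, Enpp2 at 0.26 (6 UMIs) and Tmsb15b2 at 0.060 (2 UMIs). The free RNA of the Malat1-null library was richer in insulin transcripts, with Ins2 at 357071 against 148710 CPM in wild type. Per Ins2 UMI of the pools, the Malat1-null over wild-type ratio was 2.18 (1.63 to 2.96) for Tmsb15b2, 1.77 (1.37 to 2.31) for Ppp1r1a and 0.67 (0.44 to 1.02) for Enpp2. Per total UMIs it was 5.23, 4.25 and 1.60. The quotients per Ins2 UMI moved with the depth class. On barcodes of 2 to 9 UMIs they were 3.11 (2.24 to 4.44), 1.88 (1.35 to 2.68) and 0.86 (0.48 to 1.62) in the same gene order. On barcodes of 100 to under 500 UMIs they were 22.9 (6.34 to 189.6), with 2 wild-type UMIs, 1.32 (0.93 to 1.93) and 0.60 (0.27 to 1.67), so that the interval of Ppp1r1a then included 1.

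Acinar markers on the same barcodes put free RNA at 0.58% of the UMIs in Malat1-null beta-like cells and 0.19% in wild type. The estimate depends on the RNA used. On barcodes of 10 to 99 UMIs, Gcg was at 50.5 times its beta-like level in Malat1-null and 131 times in wild type, which would give a higher share. Malat1 was at 5792 times in Malat1-null, which would give a lower one. Subtracting the acinar-based share left all 3 ratios within their counting intervals, but so small a share could hardly move them.

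**Figure D4:**
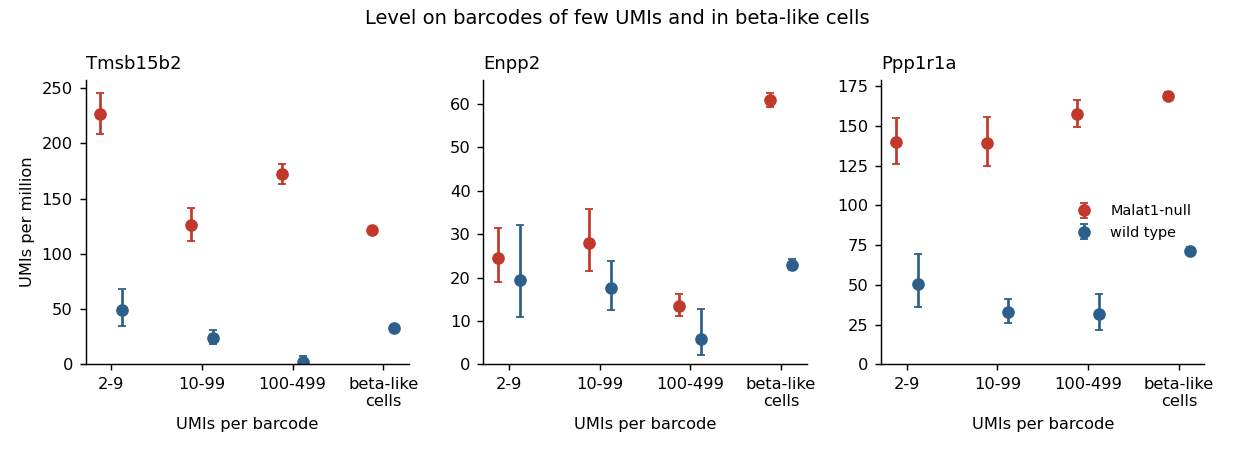
Level of each gene (CPM) on barcodes of 3 depth classes, among them that of 10 to 99 UMIs, beside the level in beta-like cells, with Malat1-null left of wild type and exact 95% Poisson intervals as bars. Tmsb15b2 on Malat1-null barcodes of 10 to 99 UMIs reaches the beta-like level (126 against 121), while Enpp2 stays below it (28.0 against 61.0).

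The related genes were read from lists chosen with earlier results of these data known. Among 6492 genes of at least 10 CPM in beta-like cells of a library, 113 (1.74%) had a ratio above 1.5 and 148 (2.28%) one below 1 in 1.5, and their median log2 ratio was 0.03. With total-count scaling these counts were 45 and 288, and the median log2 ratio was -0.16. Of the 6 listed thymosin genes, 3 besides Tmsb15b2 reached that level, and 1 exceeded a ratio of 1.5: Tmsb15b1, at 16.8 CPM in Malat1-null and 10.4 in wild-type beta-like cells, with a ratio of 1.84 (1.68 to 2.03). Tmsb4x, a widely expressed beta-thymosin, was at 180 and 226 CPM (ratio 0.91), and Tmsb10 at 43.2 and 52.3 (0.94). Of the genes for actin and its monomer binding and turnover, 18 of 19 reached the level and none passed 1.5-fold in either direction, with a median log2 ratio of -0.06. With total-count scaling 1 of them, Actg1, lay below, at 0.64. Among them, Actb was at 327 and 421 CPM (0.89), Actg1 at 238 and 370 (0.74), and Dstn, which severs filaments, at 182 and 196 (1.06).

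UMIs of Tmsb15b2 per UMI of Tmsb15b1 gave 7.24 (6.86 to 7.63) in Malat1-null and 3.16 (2.88 to 3.47) in wild-type beta-like cells. In alpha-like cells the quotient was 6.88 (6.22 to 7.63) and 4.87 (4.16 to 5.71). In wild type it was 0.77 (0.50 to 1.16) in B cell-like and 1.33 (0.79 to 2.28) in T or NK-like cells, with both intervals around 1. The quotient describes the tags as the authors assigned them.

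Of the 27 genes of the LPA and lysophospholipid path, 11 besides Enpp2 reached 10 CPM, none lay above 1.5-fold and 1 lay below, with a median log2 ratio of 0.07. The gene below was Plpp2, a lipid phosphatase that acts on LPA, at 4.57 CPM in Malat1-null and 10.6 in wild-type beta-like cells (ratio 0.49, 0.44 to 0.56). The highest levels were those of Agpat3, an acyltransferase that uses LPA, at 46.6 and 50.8 CPM (1.05), Plpp5 at 39.2 and 36.7 (1.22) and Enpp5 at 35.1 and 43.7 (0.92). The LPA receptor genes were low in beta-like cells: Lpar1 was at 1.73 and 1.5 CPM and Lpar6 at 2.20 and 3.59, and Lpar4 and Lpar5 had 0 UMIs in both libraries.

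Of the 36 genes of PP1, its inhibitors and the cyclic AMP path, 27 besides Ppp1r1a reached 10 CPM, 1 lay above 1.5-fold and none below, with a median log2 ratio of 0.03. The gene above was Ppp1r15a, a stress-induced PP1 partner that directs it to eIF2 alpha, at 93.7 CPM in Malat1-null and 66.7 in wild-type beta-like cells (ratio 1.61, 1.55 to 1.67; 1.40 with total-count scaling, which puts it under the limit). That scaling puts 1 gene below, Adcy6, an adenylyl cyclase, at 7.72 and 11.7 CPM, with a ratio of 0.66 against 0.75 after TMM scaling. Gnas, the stimulatory G protein alpha subunit, was at 516 and 596 CPM (0.99), Glp1r at 291 and 275 (1.21) and Prkar1a, a regulatory subunit of protein kinase A, at 228 and 308 (0.84). Ppp1r1b, a relative of Ppp1r1a known as DARPP-32, had 0 UMIs in beta-like cells of both libraries.

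Over 14 pairs of class and library with at least 20 cells, and 5950 genes, the patterns of the 3 genes matched different genes. The likeness is Pearson's r of log2(level + 10), a description over points that share libraries. Tmsb15b2 was most like Slc7a8 (0.962), Tmsb15b1 (0.953), Slc7a2 (0.943), Fmn2 (0.940) and Cryba2 (0.937), and the first and the third of these are amino acid transporters. Ppp1r1a was most like Glp1r (0.968), Vstm2l (0.964), the prohormone convertase gene Pcsk1 (0.962), the gap junction gene Gjd2 (0.958) and Mlxipl (0.957), which encodes the glucose-responsive factor ChREBP. Enpp2 was most like the growth hormone receptor gene Ghr (0.894), Depp1 (0.893), Klhl32 (0.878), Mrln (0.875) and Sowahc (0.865). No gene stood in more than 1 of these lists.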

How the data were processed

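The 10x 3′ version 3 libraries were deposited as unfiltered matrices of raw UMI counts per gene and barcode. The authors' counts come from Cell Ranger 4 per the file headers, while the submitters' processing notes name Cell Ranger 2.1.0 and the mm10 build, and which applies is not known. Barcodes with at least 1000 UMIs were kept. Doublets called by Scrublet (7 Malat1-null, 20 wild-type) and barcodes with over 20% mitochondrial UMIs (286 and 69) were removed. Both libraries were clustered together with scanpy 1.11.5 on 2000 variable genes, with 30 principal components, 15 neighbours and Leiden resolution 1 (0.5 for sub-clusters). The 3 members, Malat1, mitochondrial genes and the sex-linked genes Xist, Tsix, Ddx3y, Eif2s3y, Kdm5d and Uty were left out of those genes. Other genes of the X chromosome, such as Tmsb15b1, were not barred from them. Clusters were named from fixed marker lists. The mitochondrial limit and the naming limits were set after the data had been seen.

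Counts were summed per class and library. TMM factors were computed in Python (numpy 2.4.6) and equalled those of edgeR 4.0.16. Poisson and conditional ratio intervals were exact, and shares had Clopper-Pearson intervals. The calling of ratios was tested on simulated data that held counting error only. They had no spread between cells or preparations, so the test says nothing about such spread in the real ratios. Named genes are the 3 members, the 5 genes most like each between cells and over classes, and, from the lists, those beyond 1.5-fold and the 3 with the highest level. Other genes, such as those beside the members in the ranking, the LPA receptors and Ppp1r1b, were named after their values were seen. Members and lists were chosen with earlier results of these data known. Alternatives covered the barcode minimum, clustering, gate, scaling, thinning, doublets, free RNA, clusters and level minimum. UMIs limit precision: a class of few cells gives wide intervals.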

Additional observations from a re-analysis of the deposited data

Results flagged for a closer look

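In delta-like cells Tmsb15b2 went the other way from beta-like cells. Its ratio of Malat1-null over wild type was 0.36 (0.22 to 0.57), from 29 UMIs in 30 Malat1-null cells and 51 UMIs in 17 wild-type cells, whereas the beta-like ratio was 4.23. The difference between the classes was not tested, since each genotype has 1 library. Of the 51 wild-type UMIs, 35 and 10 lay in 2 cells, and without the 2 highest cells of each library the ratio was 1.75 (0.66 to 5.42). Gcg, the glucagon gene of alpha-like cells, was at 3264 CPM (2439 UMIs) in Malat1-null and 12971 CPM (6329 UMIs) in wild-type delta-like cells. The part of alpha cell RNA in the Tmsb15b2 values and in their ratio was not tested.

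In endothelial-like cells Enpp2 also went the other way, with a ratio of 0.21 (0.05 to 0.57) against 3.04 in beta-like cells, and this difference was not tested either. It rests on 4 UMIs in 3 of 39 Malat1-null cells and 42 UMIs in 7 of 87 wild-type cells. Without the 2 highest cells of each library the ratio was 0.15 (0.0036 to 0.99). B cell markers summed to 1626 CPM in Malat1-null and 2.85 in wild-type endothelial-like cells, and acinar markers to 59.5 and 769, and their part in the ratio was not tested.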

How the results depend on the processing

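No paired analysis was possible because each genotype has 1 library. Of 54 alternative ratios in beta-like cells (18 per gene, Tmsb15b2, Enpp2, Ppp1r1a), 0 fell below 1 and 31 moved out of the counting interval. Nothing is read from the 0, because the ratio chose the genes and every alternative reuses the same libraries. With a 5000-UMI minimum the ratios were 5.01, 2.86 and 2.95, and with total-count scaling 3.70, 2.66 and 2.37. For Tmsb15b2 and Ppp1r1a a 12000-UMI minimum gave 3.66 and 2.48, no mitochondrial filter (an alternative added after the data had been seen) 3.65 and 2.44, thinning to 5000 UMIs 3.35 and 2.24, and equal weight per cell 3.54 and 2.37. Tmsb15b2 at Leiden resolution 2 was 3.76. With libraries clustered alone, which left 268 wild-type beta-like cells, Enpp2 was 2.48 and Ppp1r1a 2.20. Within clusters Tmsb15b2 was 3.29 (Pdyn-led), 2.17 (Atf5-led), 3.29 (Cebpd-led) and 1.48 (Hspa1a-led), Enpp2 2.34, 2.48, 2.48 and 6.23 and, Slc2a2-led, 2.00, and Ppp1r1a 2.11, 1.82, 2.81 and 1.32 and, Slc2a2-led, 2.49. The causes were not tested. Shares depend on depth by construction (Malat1-null, then wild type): at 2000 UMIs 18.5% and 5.76%, 10.8% and 5.43%, 25.9% and 13.2%, at 20000 UMIs 66.4% and 37.1%, 55.8% and 30.8%, 86.7% and 62.8%, and unthinned 78.5% and 59.0%, 75.4% and 53.1%, 91.7% and 87.1%. At 2000 UMIs the wild-type Tmsb15b2 share was no higher than the 5.82% of T or NK-like cells. Free over beta-like level of Tmsb15b2 on barcodes of 2 to 9 UMIs was 1.86 in Malat1-null and 1.5 in wild type, where it turned to above 1, and on barcodes of 100 to under 500 UMIs 1.42 and 0.060 (2 UMIs). In that deeper class Enpp2 was 0.22 and 0.26 and Ppp1r1a 0.93 and 0.44, and at 2 to 9 UMIs wild-type Ppp1r1a was 0.71. Leaving out barcodes that are cells of the other library, an alternative added later, moved no free ratio beyond its interval. It could move them little, since those barcodes held 1.49% of the Malat1-null and 4.03% of the wild-type pool UMIs. Malat1 stayed at 1448 CPM in the Malat1-null pool without them, and other carry-over was not tested. Thinned to 5000 UMIs, r of Tmsb15b2 with Ppp1r1a was 0.150 in Malat1-null, and r of Enpp2 with Ppp1r1a in wild type turned to 0.00895. With a level minimum of 20 CPM, 13 of 4027 genes lay above and 36 below 2-fold, against 6 and 21 of 1676 at 50. The 3 members were among the higher under every setting of that count, and nothing is read from that, because the ratio chose them.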

Other observations

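Tmsb15b2 was also abundant in a small cluster led by Ghrl, the ghrelin gene, which stayed unnamed because its leading genes are shared with PP and alpha cells. It held 773 CPM (695 to 858) in 12 Malat1-null cells and 825 (688 to 981) in 5 wild-type cells, with Enpp2 at 38.9 and 13.0 and Ppp1r1a at 4.32 and 6.49 CPM. In an unnamed cluster led by Ppy and Pyy, Tmsb15b2 was at 322 CPM in 29 Malat1-null cells and 116 in 30 wild-type cells, and Ppp1r1a at 83.0 and 8.31. Both clusters mix hormones, and these cells were picked out after their values were seen.

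Between beta-like cells, the genes that ran most against each member in both libraries were Gsdma for Tmsb15b2 (r of -0.162 in Malat1-null and -0.204 in wild type), Ftl1 for Enpp2 (-0.127 and -0.125), with Ins2 next (-0.106 and -0.102), and Rasgrf2 for Ppp1r1a (-0.208 and -0.213).

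Malat1 was present on Malat1-null barcodes of 10 to 99 UMIs, at 1602 CPM, against 5404 in wild type. Barcodes that are cells of the other library held 1.49% of those Malat1-null UMIs, with Malat1 at 11819 CPM, and without them the Malat1-null value was 1448.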
